A study of Mus musculus with 50 samples.

Results

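Unc45b encodes a chaperone of striated muscle that binds the myosin head and, together with Hsp90, helps myosin heavy chains to fold and to be built into thick filaments. Its DNA methylation was followed in the soleus, a slow, oxidative muscle of the lower leg. All CpGs that the deposited annotation places in the body or the promoter of Unc45b were taken, which gave 37 of the 205304 measured CpGs. All 37 were in the gene body and 0 were in the promoter. The gene was chosen because its methylation differed between the genotypes, so the genotype difference is given below as a description with no test. Time after exercise and sex did not enter that choice and were tested.

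The mice were 12-week-old males and females on a C57BL/6 background. All were homozygous for a Dnmt3a allele with LoxP sites around exon 19 (Dnmt3a flox/flox). Those without Cre served as wild type (WT), and those with an mCK-Cre transgene were the muscle knockouts (mD3AKO). The promoter of muscle creatine kinase drives this Cre late in muscle differentiation, so satellite cells and non-muscle cells of the soleus can keep Dnmt3a, and a whole muscle holds DNA from all of them. A resting group had a sham treadmill, and the other groups were sampled 10, 30 or 60 min after 30 min of treadmill running. From rest to 60 min, WT had 5, 5, 5 and 6 samples and mD3AKO 5, 5, 7 and 6, 44 in all, with both sexes in each group.

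DNMT3A is one of the enzymes that place methyl groups on CpGs that carried none, and DNMT1 copies existing methylation when DNA is replicated. In most tissues CpG-poor gene bodies are highly methylated and CpG islands are not, and methylation inside a gene body can go with high or low transcription. Reduced representation bisulfite sequencing (RRBS) reads the ends of DNA fragments cut by MspI at CCGG, so a CpG is measured only if it lies near such a site. A methylation level is given here as methylated calls in percent of all calls.

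The gene spans chr11:82910550-82943403 on the plus strand (GRCm38, the same assembly as mm10) and has 20 exons in the transcript used here. The measured CpGs lay in 3 places. A single CpG was in exon 2, 3 CpGs were in intron 12, and 33 CpGs were in intron 13 (chr11:82929562-82933831). The 33 CpGs in intron 13, from chr11:82930663 to 82931985, form 1 cluster of the deposited annotation. They are not evenly spread, and fell into stretches of 14, 10 and 9 CpGs, called the first, the second and the third below, which lay 534 and 488 bp apart. The study describes clusters as CpGs at most 100 bp apart, which these measured CpGs exceed, so the deposited cluster is wider than that rule applied to them.

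The sequence of these places shows what was measured. They are shown 5′ to 3′ on the plus strand from GRCm38, with the measured CpGs in capitals. The first is the exon 2 CpG (chr11:82911725-82911776) and the second holds the intron 12 CpGs (chr11:82929161-82929316).
Exon 2: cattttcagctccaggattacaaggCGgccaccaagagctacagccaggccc
Intron 12: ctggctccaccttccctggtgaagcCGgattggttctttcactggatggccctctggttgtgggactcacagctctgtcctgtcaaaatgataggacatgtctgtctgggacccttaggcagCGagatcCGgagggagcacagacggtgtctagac

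The 3 stretches of intron 13 are shown in the same way (chr11:82930651-82930851, chr11:82931361-82931454 and chr11:82931917-82931998). They are built from near copies of 1 short word, in which CGctCG recurs.
The first stretch: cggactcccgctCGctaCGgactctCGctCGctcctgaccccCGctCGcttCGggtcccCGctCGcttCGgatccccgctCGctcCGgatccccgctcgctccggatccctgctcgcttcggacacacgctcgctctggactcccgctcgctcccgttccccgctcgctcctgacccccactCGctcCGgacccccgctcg
The second stretch: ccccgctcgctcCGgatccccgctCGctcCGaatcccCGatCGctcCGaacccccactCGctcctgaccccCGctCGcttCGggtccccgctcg
The third stretch: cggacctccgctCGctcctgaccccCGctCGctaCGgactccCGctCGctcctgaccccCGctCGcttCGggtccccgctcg
Most common unit: ggaccccCGctCGctcc

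These stretches belong to a tandem repeat with a period of 17 bp, which runs over 3187 bp of intron 13 (chr11:82930165-82933351). The unit printed last occurs in 36 exact copies. Over the part that spans the 33 measured CpGs, 83.7% of bases equalled the base 17 bp before. The GC content of the repeat was 75.7%. It holds 477 CpGs, of which 33 were measured, and 106 CCGG sites. Of the 105 MspI fragments between these sites, 60 were 17 bp long, and 27 were at least 40 bp long. Most measured CpGs lay on MspI fragments of 89 bp. The first 75 bases of both ends of these fragments, the length of a read, matched the converted genome at 1 place each. The next best place in the repeat differed by only 1 to 4 bases. How far reads from other units were placed in these stretches was not tested. CpGs on 1 fragment share reads and are not independent measurements.

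Depth varied among samples, which held 12819404 to 41285655 calls over all CpGs. The repeat had 1106 to 4683 calls per sample (median 2466), and the coverage of 1 of its CpGs in 1 sample was 9 to 250. The intron 12 CpGs had 62 to 621 calls in all, and the exon 2 CpG 16 to 400. The share of all calls that fell on the repeat was 126 calls per megacall in WT (± 30.1 SD, n = 21) and 119 in mD3AKO (± 27.9 SD, n = 23), with p = 0.380 in a two-sided permutation test. Coverage of the 21 measured CpGs of Dnmt3a did not separate the genotypes at any CpG, so the deletion itself was not checked here and the labels were taken as given.

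One WT library had the lowest WT level at the repeat. Sample 32, a female taken at 30 min, had 3.69% over the 33 CpGs, just above the highest mD3AKO sample at 3.62%. The next WT sample, number 49, had 5.02%. In the first stretch sample 32 had 1.08%, which is within the range of mD3AKO. At the 553 other clusters with lower methylation in mD3AKO (edgeR, quasi-likelihood test with Benjamini-Hochberg adjusted p under 0.05) its mean level was 33.2%. The other WT samples had 32.4% to 38.5% there, and the mD3AKO samples 18.5% to 25.9%. Outside the repeat the library was thus among the WT libraries. Those clusters were selected on the same contrast, so that comparison is a description. Values that rest on sample 32 are given with and without it.

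Methylation of the repeat was low in mD3AKO at every time. Over the 33 CpGs pooled the level was 16.1% in WT (± 7.74 SD, n = 21) and 1.57% in mD3AKO (± 0.785 SD, n = 23), a difference of -14.6 percentage points. Without sample 32 the WT level was 16.8% ± 7.38 (SD, n = 20). The lowest, median and highest levels were 3.69%, 17.1% and 33.2% in WT and 0.413%, 1.38% and 3.62% in mD3AKO. All 23 mD3AKO samples were below all 21 WT samples, by a narrow margin that sample 32 sets. Of the 51038 clusters of the series, 4 (0.00784%) had every mD3AKO sample below every WT sample. The size of the fall was less unusual, since 828 of the 51038 clusters fell by more points than the repeat. Because this contrast chose the gene, nothing is read from the separation. In a whole muscle, a loss of methylation within muscle fibres and a change in the share of fibre nuclei cannot be told apart.

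**Figure D1:**
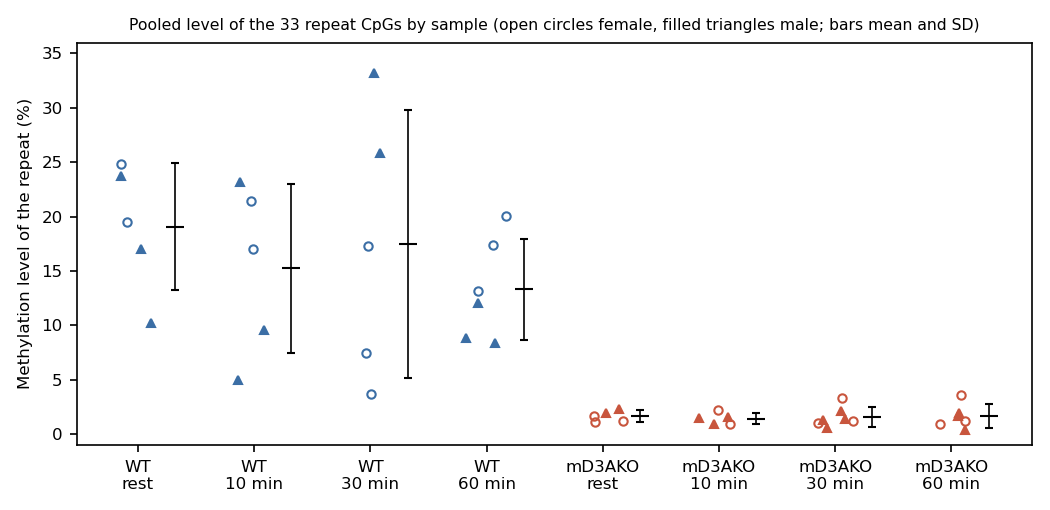
Pooled methylation level (%) of the 33 CpGs in the repeat of intron 13, by group (x axis), with 1 point per sample, open circles for females, filled triangles for males, and the mean with its SD beside each group. WT samples scatter from 3.69% to 33.2%, and mD3AKO samples all lie between 0.413% and 3.62%.

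At rest the 5 WT samples had 24.9%, 10.3%, 17.1%, 23.8% and 19.5%. At 10 min they had 21.4%, 23.2%, 9.55%, 17.0% and 5.02%. At 30 min they had 7.43%, 3.69%, 33.2%, 25.9% and 17.3%. The 30 min group thus held both the lowest and the highest WT level. At 60 min the lowest, median and highest of the 6 WT samples were 8.35%, 12.6% and 20.1%.
The 5 mD3AKO samples at rest had 1.19%, 2.34%, 1.95%, 1.71% and 1.13%. At 10 min they had 1.45%, 2.21%, 1.54%, 0.959% and 0.925%. Over the later times the range was 0.558% to 3.33% at 30 min (median 1.29%, n = 7) and 0.413% to 3.62% at 60 min (median 1.45%, n = 6). Since all mD3AKO samples were below all WT samples, the groups could not overlap at any time, and this adds nothing to the separation above. The differences were -17.4 points in the resting group, then -13.8, -15.9 and -11.7 at 10, 30 and 60 min.

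The gap was of similar size in both sexes and in both sets of sample numbers. Females had 16.2% in WT (± 6.45 SD, n = 10) and 1.69% in mD3AKO (± 0.962 SD, n = 11). Males had 16.1% ± 9.08 (SD, n = 11) and 1.47% ± 0.604 (SD, n = 12). The resting and 60 min groups hold the samples numbered 1 to 25, and the 10 and 30 min groups those numbered 26 to 50. The difference was -14.3 points in the first set and -14.9 in the second.

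The residual level in mD3AKO was near that of unmethylated promoters but above it. Across 4064 promoter clusters of at least 10 CpGs, the median level in a sample was 0.514% in WT (± 0.0888 SD, n = 21) and 0.491% in mD3AKO (± 0.0912 SD, n = 23), a background that includes incomplete conversion. The repeat was above this median of its own sample in 23 of 23 mD3AKO samples. By stretch this held in 22 of 23 mD3AKO samples for the first, 13 for the second and 15 for the third.

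The repeat was set beside other clusters of at least 10 CpGs that carried methylation in WT. There were 258 clusters outside Unc45b with at least 10 CpGs and a WT level of at least 10%. In these the mD3AKO level was 92.1% of the WT level in the median, and 20.7% at the lowest. For the repeat in Unc45b it was 9.74%. The gene was selected on this contrast, and the clusters were kept by their WT level, on which the percentage also rests. The place of the repeat among them is thus a description.

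The 3 stretches differed in how much methylation WT muscle carried. The first stretch had 24.5% in WT (± 11.3 SD, n = 21), with a lowest, median and highest level of 1.08%, 27.0% and 42.0%. Without sample 32 it had 25.7% ± 10.2 (SD, n = 20), and the lowest level was 8.68%. In mD3AKO it had 2.08% ± 1.56 (SD, n = 23), from 0 to 6.84%. Sample 32 was the only WT sample within the mD3AKO range there, and 6 of 23 mD3AKO samples lay below it.

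The second stretch had 6.07% in WT (± 6.02 SD, n = 21), from 0 to 24.8% with a median of 4.30%. In mD3AKO it had 1.39% ± 2.64 (SD, n = 23), from 0 to 12.3% with a median of 0.640%. The genotypes overlapped widely in this stretch. The third stretch had 8.26% in WT (± 8.50 SD, n = 21), from 0.530% to 30.8% with a median of 4.62%. In mD3AKO it had 1.10% ± 1.20 (SD, n = 23), from 0 to 5.53%, and 8 of 23 samples lay below the lowest WT sample. No stretch alone separated all samples of the genotypes. The difference of the means was -22.4 points in the first stretch, -4.68 in the second and -7.16 in the third. Sample 32 had 1.08%, 6.09% and 4.28% in the 3 stretches, so its pooled level above mD3AKO did not come from the first.

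**Figure D2:**
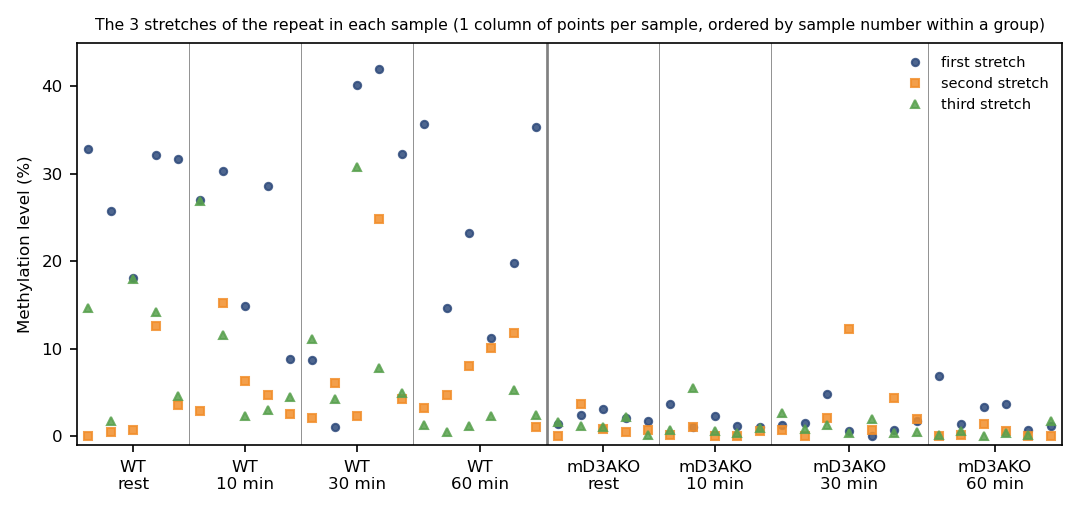
Methylation level (%) of the first (circles), the second (squares) and the third (triangles) stretch of the repeat in each of the 44 samples, with samples side by side along the x axis and grouped by genotype and time. In WT the first stretch is above the second in 20 of 21 samples, while the second and the third change places from sample to sample.

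The first stretch was the highest of the 3 in most WT muscles, and the other two had no fixed order. The first stretch was above the second in 20 of 21 and above the third in 19 of 21 WT samples. The second was above the third in 10 of 21. In mD3AKO the first was above the second in 18 of 23 samples, at levels of a few percent.
Across WT samples the levels of the stretches were only weakly related. Spearman's rho between the first and second stretch was -0.04, between the first and the third 0.27, and between the second and the third -0.15 (n = 21 samples, which share depth and library with both values). WT sample 38 had 42.0% in the first stretch, 24.8% in the second and 7.74% in the third, and WT sample 37 had 40.1%, 2.33% and 30.8%. Similarly high first stretches thus stood beside very different levels farther along the repeat.

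Differences between WT samples were set beside the spread of independent calls. The SD of the pooled level was 7.74 points in WT, where independent calls would give 0.766. In mD3AKO it was 0.785 points against 0.253. PCR copies were not told apart in these libraries, and CpGs on 1 fragment share reads, so the true counting error may exceed the values for independent calls and was not measured. As a share of the mean, the SD was 48.0% in WT, against a median of 32.5% over the 258 clusters named above, and 30 of those had a share at least as large.

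The level of the repeat in WT was set beside 3 properties of the samples. Pearson's r was -0.15 with the total number of calls (permutation p = 0.530, Spearman's rho -0.26, p = 0.249). It was 0.26 with the mean level over all CpGs (p = 0.262, rho 0.23, p = 0.310). With the number of calls on the repeat it was -0.25 (p = 0.275, rho -0.21, p = 0.366). None passed, and over these and the same relations in mD3AKO, 6 in all, each Benjamini-Hochberg adjusted p was 0.759 for r and at least 0.731 for rho. Leaving out the 2 samples farthest from the median of the property gave r of -0.30, 0.27 and -0.32. Within samples 1 to 25 r was -0.38, 0.46 and -0.35 (n = 11), and within samples 26 to 50 it was -0.07, 0.15 and -0.24 (n = 10), and none of these passed either.

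Single CpGs of the first stretch showed a regular profile in WT. CpGs are numbered along the plus strand within a stretch. CpG 1 had the highest level, 41.6% in WT with a lowest, median and highest sample of 0, 45.7% and 68.1%, and 2.26% in mD3AKO. CpG 3 followed with 40.1% in WT and 3.37% in mD3AKO. Of the first 12 CpGs, the 10 other than CpGs 7 and 10 had WT means of 19.2% to 41.6% and mD3AKO means of 1.61% to 3.91%.
CpG 7 had 6.15% in WT and 0.154% in mD3AKO, and CpG 10 had 11.0% and 1.45%. Each of them was below both of its neighbours in 18 of 21 WT samples. These 2 CpGs stand in the words ttCGgg and ttCGga in the first stretch printed above, while the CpGs beside them mostly stand in ctCGct. CpGs 13 and 14, which begin 97 bp beyond CpG 12, had 5.38% and 5.57% in WT.

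**Figure D3:**
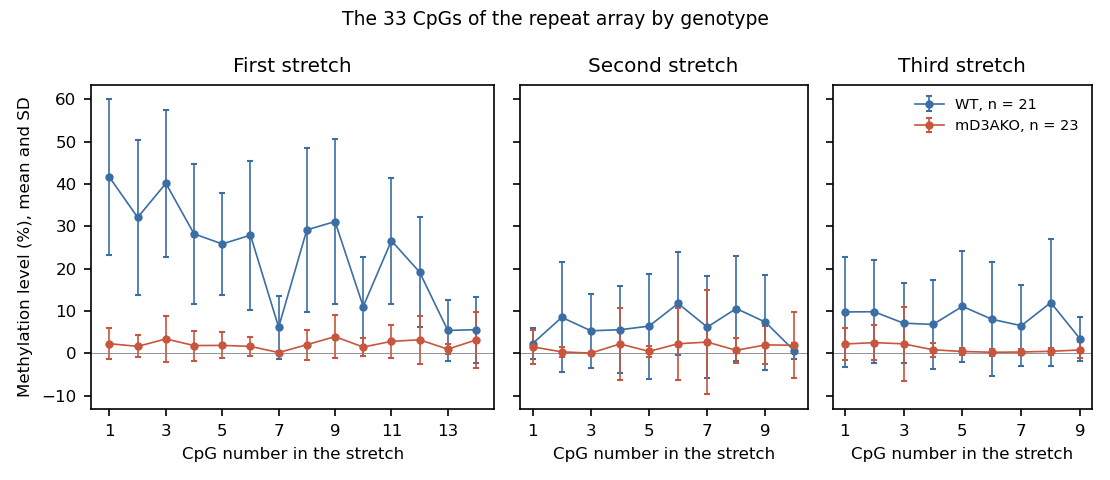
Methylation level (%) of each of the 33 CpGs of the repeat by genotype, in the order of the plus strand within the first, the second and the third stretch. Points are means over 21 WT and 23 mD3AKO samples and bars are SDs, which reach below 0 because the levels are skewed. The WT line is above 19% at 10 of the first 12 CpGs of the first stretch and falls to 6.15% and 11.0% at CpGs 7 and 10.

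CpGs followed by C, as in CGct, had higher WT levels in the median than those followed by G. Over the repeat the WT mean of a CpG was 10.6% in the median for the 21 CpGs followed by C, from 5.38% to 41.6%, and 6.15% for the 9 followed by G, from 0.519% to 32.1%. Within the first stretch it was 28.2% for 9 CpGs and 11.0% for 5. In the second stretch it was 7.34% for 5 and 1.40% for 2, and 5.54% for the 3 CpGs followed by A, which occur only there. In the third stretch it was 9.75% for 7 CpGs followed by C and 5.07% for 2 followed by G. CpG 2 of the first stretch, in taCGga, had 32.1% although a G follows it. In mD3AKO the medians over the repeat were 1.84% for C and 1.51% for G. CpGs 12 and 14 of the first stretch and CpG 1 of the second, all followed by G, stand in CCGG, the MspI site. The next base and the place on the fragment are thus mixed. The CpGs share fragments, so these values are a description.

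In the second stretch the WT means ran from 0.519% at CpG 10 (ttCGgg) to 11.8% at CpG 6. In the third they ran from 3.35% at CpG 9, again in ttCGgg, to 12.0% at CpG 8. The word ttCGgg thus stood at the lowest WT mean of the second and the third stretch, and at the lowest among the first 12 CpGs of the first.
At most CpGs of the second and the third stretch a few WT samples carried the methylation. CpG 5 of the second stretch had a WT median of 0 and a highest level of 48.0%, and CpG 8 of the third had a median of 4.82% and a highest of 52.1%.

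**Figure D4:**
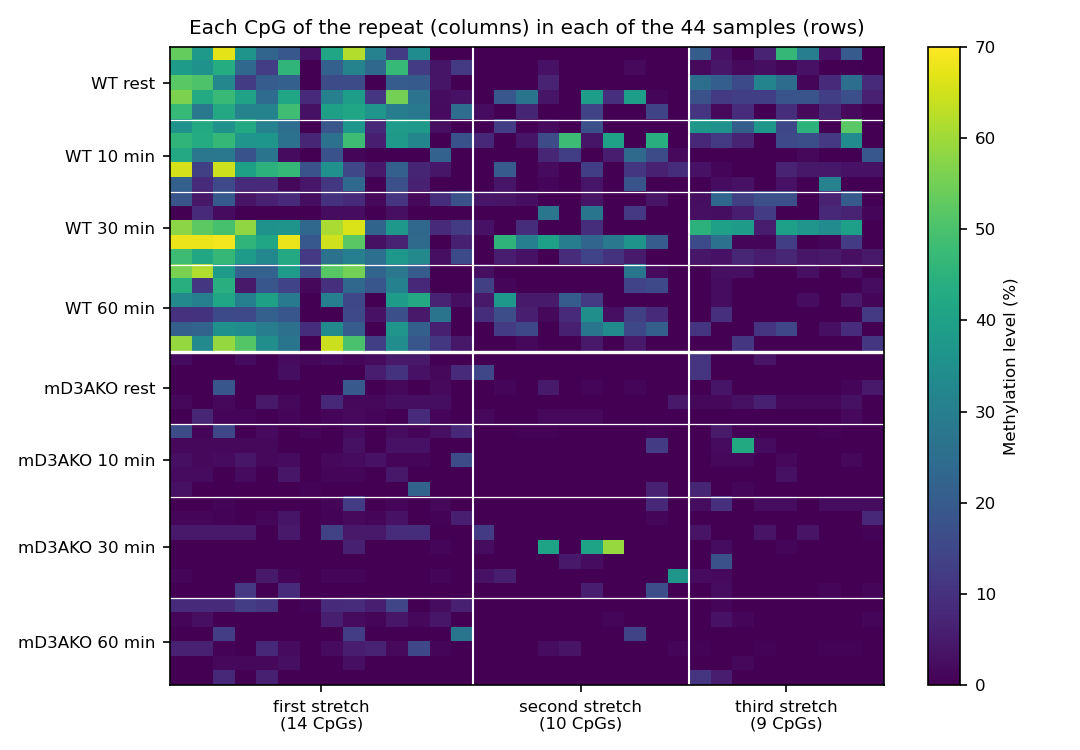
Methylation level (%, colour scale from 0 to 70) of each of the 33 CpGs of the repeat (columns, in the order of the plus strand, stretches divided by white lines) in each of the 44 samples (rows, by genotype and time). WT rows are bright over most of the first stretch and patchy elsewhere, and mD3AKO rows are dark apart from 7 values of 20% or more, 2 of them at neighbouring CpGs of sample 36.

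Of the 33 CpGs of the repeat, 32 had a lower mean in mD3AKO, and 35 of all 37 CpGs of Unc45b did, where 54.9% of all CpGs of the series had a lower mean. At 25 of the 33 the mean was lower at each of the 4 times. The exception in the repeat was CpG 10 of the second stretch, with 0.519% in WT and 1.87% in mD3AKO. No single CpG of the repeat separated the genotypes completely. No methylated call was found in 219 of the 693 pairs of a CpG and a WT sample (31.6%) and in 511 of the 759 pairs in mD3AKO (67.3%). The median over mD3AKO samples was 0 at 25 of the 33 CpGs, and over WT samples at 6.

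High levels at single CpGs were rare in mD3AKO. A level of 20% or more was reached in 207 of the 693 pairs in WT and in 7 of the 759 in mD3AKO, which came from 5 samples. Lower levels also ran over neighbouring CpGs, as in mD3AKO sample 3, where CpGs 1 to 5 of the first stretch had 8.21% to 12.7%. In mD3AKO sample 36 (30 min), CpG 7 of the second stretch had 16 of 27 calls methylated. CpGs 4 and 6 had 11 of 27 each, while CpGs 5 and 8 had 0 of 27. In mD3AKO sample 28 (10 min), CpG 3 of the third stretch had 20 of 47 calls methylated, and CpGs 2 and 4 had 1 of 47 each. In mD3AKO sample 45 (10 min) CpG 12 of the first stretch had 12 of 54 and CpG 11 had 0 of 54. The 7 values of 20% or more stood at 7 different CpGs.

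The 3 CpGs in intron 12 lie just before the repeat and kept more of their methylation. Pooled, they had 66.4% in WT (± 12.9 SD, n = 21), from 44.7% to 86.3%, and 39.3% in mD3AKO (± 15.5 SD, n = 23), from 4.42% to 65.8%. All 23 mD3AKO samples were below the WT mean, and 14 of 23 were below the lowest WT sample. CpG 1 (position 82929186) had 51.4% in WT and 21.2% in mD3AKO, CpG 2 (82929284) had 82.4% and 57.9%, and CpG 3 (82929291) had 70.0% and 45.3%. In points the difference of -27.1 was larger than that of the repeat, but the mD3AKO level remained 1.69-fold below WT, where in the repeat it was 10.3-fold below.

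The exon 2 CpG (position 82911750) was methylated to a similar extent in both genotypes. It had 48.5% in WT (± 11.9 SD, n = 21), from 16.5% to 72.3%, and 51.9% in mD3AKO (± 14.2 SD, n = 23), from 28.9% to 75.0%. The samples of the 2 genotypes overlapped almost fully. It was the only CpG outside the repeat whose mean was not lower in mD3AKO.
Over all 37 CpGs pooled, the gene body had 22.2% in WT (± 6.93 SD, n = 21) and 7.48% in mD3AKO (± 2.95 SD, n = 23). The pooled value mixes places with very different levels, and the repeat gives most of its calls.

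**Figure D5:**
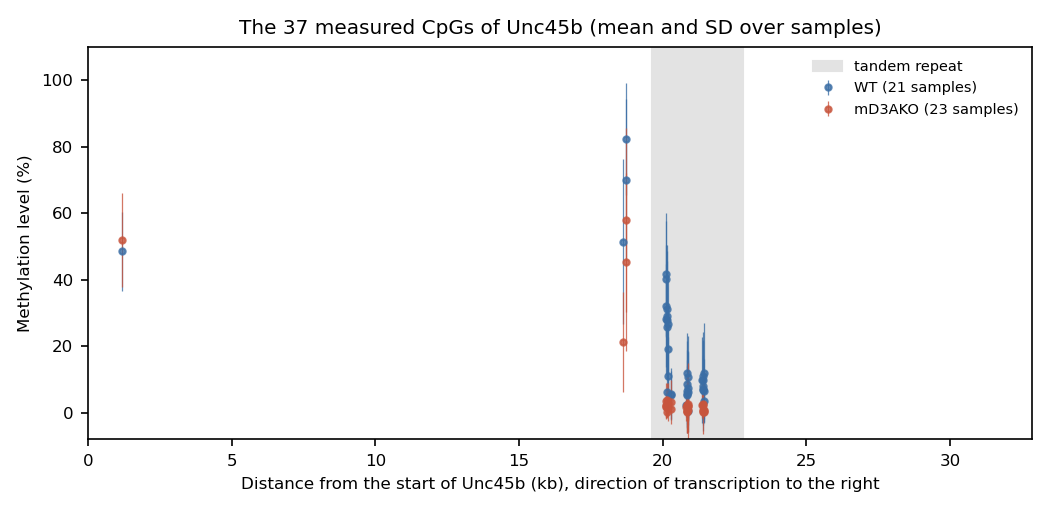
Methylation level (%) of the 37 measured CpGs of Unc45b against their distance from the start of the gene in kb, as means with SDs over 21 WT and 23 mD3AKO samples, with the tandem repeat shaded. The exon 2 CpG near the start has similar means of 48.5% and 51.9%, and the means of the intron 12 and repeat CpGs are lower in mD3AKO at all but 1 CpG.

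No effect of exercise was detected at Unc45b. For the repeat, the edgeR quasi-likelihood test gave a Benjamini-Hochberg adjusted p = 1 over 51038 clusters, both for time over both genotypes and for the interaction of genotype and time. Over all clusters this test called 0 (0%) for time and 0 (0%) for the interaction. Unadjusted p-values under 0.05 numbered 1460 and 1399, the likelihood ratio test called 10 and 7, and limma 0 and 1. The repeat was in none of these calls. A permutation test of the F statistic on the sample levels gave p = 0.643 for time and p = 0.647 for the interaction.

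The largest change of the repeat after exercise was at 60 min in WT, at 13.3% ± 4.65 (SD, n = 6) against 19.1% ± 5.86 (SD, n = 5) at rest. The difference of -5.76 points gave an exact permutation p of 0.104 (two-sided), and in edgeR the log2 odds ratio was -0.63 (SE 0.57, adjusted p = 1). At 10 min the log2 odds ratio in WT was -0.51 (SE 0.60) and at 30 min -0.45 (SE 0.62), both across the sets of sample numbers. In mD3AKO the 3 log2 odds ratios were -0.25 (SE 0.60), -0.23 (SE 0.56) and -0.22 (SE 0.58), with an adjusted p of 1 for each. A log2 odds ratio of 1 would be less than 2 of these SEs.

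Among 36 comparisons of a time with rest (3 times, 2 genotypes and 6 places of the gene), the lowest exact p was that of the third stretch in WT at 60 min. There the level was 2.19% ± 1.70 (SD, n = 6) against 10.6% ± 7.05 (SD, n = 5) at rest (exact permutation test, two-sided, p = 0.0390). The adjusted value over the 36 comparisons was 0.748. At 60 min the 6 WT samples ranged from 0.530% to 5.31%, and at rest the range was 1.69% to 17.9%, so the groups overlapped. The exon 2 CpG in WT had 56.4% ± 10.2 at rest, 45.5% ± 4.83 at 10 min and 44.0% ± 8.47 at 30 min (SD, n = 5 each, exact permutation p = 0.0556 and 0.0714). Both had an adjusted value of 0.748, and both run across the sets of sample numbers. At 60 min, in the same set as rest, the exon 2 CpG in WT had 48.3% ± 17.9 (SD, n = 6, exact permutation p = 0.442). The lowest exact p in mD3AKO was 0.104, again for the third stretch at 60 min.

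In the test by CpG, 0 of the 37 were called for time and 0 for the interaction, where 0 (0%) of all 205304 CpGs were called in each. At an unadjusted p under 0.05 there were 0 of 37 for time and 1 of 37 for the interaction, which was CpG 1 of the second stretch (edgeR adjusted p = 1). Of all 205304 CpGs, 6983 and 5916 had such a p in edgeR. With limma 0 were called and 0 had an unadjusted p under 0.05. For the pooled gene body edgeR gave an adjusted p = 1 for time and for the interaction, and of 12391 gene bodies 0 (0%) were called for time and 0 (0%) for the interaction. The WT gene body had 25.6% ± 6.45 at rest (SD, n = 5) and 19.2% ± 3.64 at 60 min (SD, n = 6), and in mD3AKO it had 8.81% ± 2.34 (SD, n = 5) and 6.04% ± 2.15 (SD, n = 6).

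Sex was tested in the same model. For the repeat the log2 odds ratio of males against females was -0.13 (SE 0.30, edgeR adjusted p = 1.00), and the interaction of genotype and sex had an adjusted p = 1. On the sample levels with group means removed, the male minus female difference was -0.175 points (permutation test within groups, two-sided, p = 0.918). These values do not show that the sexes were alike, since the WT spread of 7.74 points limits what could be seen.

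No other cluster near Unc45b was called for genotype. Within 50000 bp of the gene there were 11 other clusters with 51 CpGs, and 0 passed in edgeR (lowest adjusted p = 0.384). Over all 51038 clusters this test called only 557 for genotype, so a count of 0 among 11 says little about the surroundings. The promoter of Nle1, the next gene before Unc45b (chr11:82908059-82908382, 12 CpGs), had 0.240% in WT (± 0.350 SD, n = 21) and 0.641% in mD3AKO (± 0.594 SD, n = 23). The Slfn5 promoter beyond the 3′ end (chr11:82952288-82952308, 3 CpGs) had 0.412% ± 0.892 and 2.29% ± 7.86. A cluster in Rffl with 1 CpG had the largest fall, from 35.1% ± 12.2 to 24.9% ± 10.2 (adjusted p = 0.384). The neighbours were mostly promoters near 0, at which a fall cannot be seen.

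The partners of Unc45b in building the myosin filament were examined in 3 lists, with genotype tested over all gene bodies and all promoters. The lists were chosen with earlier results of these data known, so the number of their genes called is a description. The myosin folding chaperones hold Hsp90 and its co-chaperones, the chaperonin subunits and the methyltransferases Smyd1 and Smyd2. Of the 25 listed genes 18 had a measured gene body, and 0 were called in edgeR (adjusted p under 0.05), 0 with limma and 0 with the likelihood ratio test, where 1.4% of all gene bodies were called lower in mD3AKO. Unadjusted p-values under 0.05 numbered 2 of 18, where 1211 of all 12391 gene bodies had one. The median difference over the list was -0.06 points, against -0.27 over all gene bodies.

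Unc45a, the paralog of Unc45b that is expressed in most tissues, showed no detectable difference. Its gene body (10 CpGs) had 9.86% in WT (± 5.41 SD, n = 21) and 8.73% in mD3AKO (± 3.78 SD, n = 23) (log2 odds ratio -0.13, SE 0.26, adjusted p = 0.989). Its promoter (7 CpGs) had 0.540% ± 0.854 and 0.662% ± 0.771 (adjusted p = 0.975).
Of the 17 chaperone genes with a measured promoter 1 was called, and it was lower in mD3AKO, where 0.779% of all promoters were. Since earlier results were known when the list was chosen, nothing is read from this count. The promoter called was that of Fkbp5, an Hsp90 co-chaperone that glucocorticoids induce. Its 3 promoter CpGs (chr17:28517606-28517694) had 22.8% in WT (± 10.4 SD, n = 21) and 6.49% in mD3AKO (± 4.27 SD, n = 23), and each of the 23 mD3AKO samples lay under the mean of WT (log2 odds ratio -2.32, SE 0.48, adjusted p = 0.00580).

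The thick filament and M-band list holds the myosin heavy and light chains and the proteins that link them. Of 25 genes 20 had a measured gene body and 1 was called, where 1.4% of all gene bodies were called lower in mD3AKO. At an unadjusted p under 0.05 there were 5 of 20, where 1211 of all 12391 gene bodies had such a p. Not all of the 5 were lower in mD3AKO. The gene called was Obsl1, which encodes an obscurin-like protein of the cytoskeleton. Over its 32 CpGs it had 18.0% in WT (± 4.56 SD, n = 21) and 12.7% in mD3AKO (± 2.90 SD, n = 23), and 23 of 23 mD3AKO samples were below the WT mean (log2 odds ratio -0.58, SE 0.15, adjusted p = 0.0256). The list median was -1.20 points. Of its 6 measured promoters 0 were called in edgeR (1 at an unadjusted p under 0.05), 0 with limma and 1 with the likelihood ratio test, which was Mybpc2. Over all 9761 promoters the likelihood ratio test called 188, and 794 had an unadjusted p under 0.05 in edgeR.
The small heat shock proteins and their partners, which bind unfolded proteins in muscle, had 7 of 10 gene bodies and 7 of 10 promoters measured. In edgeR 0 and 0 were called, with 1 and 0 at an unadjusted p under 0.05, and neither limma nor the likelihood ratio test called any. The counts over all gene bodies and all promoters are those given above.

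Finally, the clusters whose level most resembled that of the repeat over the WT samples were listed. Among 3330 clusters with at least 5 CpGs and a WT SD of at least 3 points, the median of Spearman's rho with the repeat was 0.06 (n = 21 samples). The 5 highest values were 0.73 to 0.67. The first of these was outside annotated genes (chr19:44719354-44720389, 14 CpGs), with 14.8% ± 3.54 in WT and 15.0% ± 3.65 in mD3AKO. The second (chr9:5617155-5617199, 5 CpGs), also outside genes, had 95.0% in both. The others lay in Hmga2 (21.0% and 18.8%), in Vhl (6.29% and 5.85%) and in Gm42416 at the promoter of Pcdhga1 (28.2% and 28.9%). In mD3AKO samples the 5 had a rho of -0.21 to 0.41 with the repeat. They were picked as the highest of 3330, so values of this size carry no test.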

How the data were processed

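The authors digested soleus DNA with MspI, sequenced 75-bp single-end reads, trimmed them with Trim Galore 0.4.0 and cutadapt 1.9.1 and aligned them to mm10 with Bismark 0.18.1. What the authors deposited are unnormalized counts, methylated and unmethylated, for each autosomal CpG covered by 8 or more reads in all samples, with both strands added. PCR copies were not removed by molecular identifiers, so the calls are not independent molecules.

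Counts were available for 44 of the 50 samples, and 6 were not used here. One of these carries conflicting genotype labels and was put in no group. The members and the gene lists were chosen with earlier results of these data known. The listed positions were used, which for 6 of the 37 Unc45b CpGs are those of the G. Methylation levels were pooled as methylated over all calls. Counts were also summed over 51038 clusters as deposited (described as CpGs at most 100 bp apart, though the Unc45b cluster has gaps of 534 and 488 bp between measured CpGs), 12391 gene bodies and 9761 promoters, and tested with the quasi-likelihood test of edgeR 4.0.16, using 8 group means and 1 coefficient for each sample. Its common dispersion came from every 10th feature in the tests by CpG, sex and raised coverage. Benjamini-Hochberg adjustment ran over all features and 0.05 was the threshold. Alternatives were the likelihood ratio test and limma 3.58.1 on log2 ratios with a pseudocount of 1. Permutation tests on levels were exact for groups under 10 samples and otherwise used 100000 resamples. The tests were tried on simulated counts first. All 101 pairs of samples within groups differed by more than independent calls would give (chi-square of 6.00 to 13.8 per CpG over 10266 CpGs). As the calls are not independent molecules, the true sampling noise may be larger. Genes were named by rule: Unc45b, Unc45a, listed genes called for genotype, and the 5 clusters most like the repeat. Mybpc2 and Trim54, called by 1 alternative, were added after their values were seen. Sequences and repeat structure were read from GRCm38, and exons from GENCODE M21. No expression values were in the table, so the tissue was not checked against marker genes.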

Additional observations from a re-analysis of the deposited data

Results flagged for a closer look

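Within groups of 5 to 7 samples, the highest or lowest sample was compared with the others by the gap to its nearest neighbour relative to the group's range (Dixon's test at the 95% level). Of 56 combinations of a group and a place in Unc45b 8 stood out. For independent, normally distributed values about 2.8 would (about 1 in 20), but the places overlap and the levels are skewed near 0, so this is not the chance count for these data. All 8 were high samples, and all were in the stretches of the repeat.

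In the second stretch these were WT sample 14 at rest (12.6%, next 3.55%), WT sample 38 at 30 min (24.8%, next 6.09%), mD3AKO sample 8 at rest (3.72%, next 0.876%) and mD3AKO sample 36 at 30 min (12.3%, next 4.40%). In the third stretch they were WT sample 37 at 30 min (30.8%, next 11.1%), mD3AKO sample 28 at 10 min (5.53%, next 0.898%) and mD3AKO sample 23 at 60 min (1.76%, next 0.586%). In the first stretch mD3AKO sample 33 at 30 min stood out (4.78%, next 1.70%). Stretches of the same sample were mostly not flagged together, and no sample was flagged in more than 1 stretch.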

How the results depend on the processing

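The genotype difference of the repeat was -14.6 points and negative under every alternative run. The gene was chosen on this contrast, so the sign is no test, and the runs only describe how the size varied. The size depended on which CpGs were pooled. With the cluster split at gaps over 50 bp it was -24.7 points (12 CpGs), and at gaps over 200 bp it was -22.4 (14 CpGs, the first stretch). Taken alone, a choice made after seeing the data, the first stretch gave -22.4, the second -4.68 and the third -7.16 points. The other 7 settings (unweighted mean, coverage of at least 20, rest only, either sample set, either sex) moved it by less than the WT SD, from -12.6 to -17.9. Leaving out 1 sample gave -15.2 (without WT sample 32) to -13.7 (without WT sample 37). Time and interaction at the repeat had adjusted p-values of 0.998 to 1 and 0.999 to 1 when 1 sample was left out (limma), and no alternative called either, nor sex, the gene body, single CpGs or a correlation. The likelihood ratio test called 2 listed gene bodies (Obsl1 and Trim54) in place of 1, and 2 promoters (Fkbp5 and Mybpc2) in place of 1. No paired analysis was possible because each sample number occurs once and the groups share none. Depth limits the exon 2 CpG (from 16 calls per sample), the intron 12 CpGs (from 62) and the second stretch (from 115) more than the other places.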
